A study of Mus musculus with 13 samples.

Results

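In all, 10 genes were followed here: Tshz3, Igf2bp3, Adam23, Spats2l, Cadm1, Prelid2, Zfp532, Armcx2, Slc8a1 and Setbp1. They are 10 of 35498 annotated mouse genes and 10 of the 13044 genes that passed a filter on low counts; all 10 passed it. Each was chosen because its transcripts were close to absent in every library of one label group and clearly present in every library of another. The values that chose them are therefore CPM (counts scaled to the depth of each library) of the label groups themselves, and the differences between label groups are given below as a description with no test. The rule named no limits. Here a gene is called off in a group when every library was under 0.5 CPM and on when every library was at 2 CPM or more.

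The samples are 13 libraries of poly(A) RNA from cultured mouse melanoma cell lines. The study concerned soluble adenylyl cyclase (sAC), encoded in the mouse by Adcy10, whose expression in chosen parts of the cell was to be driven by doxycycline, an antibiotic that switches on suitably built transgenes. The libraries labelled NLS come from cell line numbers 6, 7 and 16, without doxycycline (NLS t0) or with doxycycline for 6 h (NLS t6) or 48 h (NLS t48), and the libraries labelled LacZ come from cell line numbers 10 and 12 without doxycycline (LacZ t0) or with it for 48 h (LacZ t48). This gives 3 libraries in each NLS group and 2 in each LacZ group. The sAC compartment label is none for the t0 libraries and nuclear for the NLS t6 and NLS t48 libraries; the LacZ t48 libraries also carry the label nuclear, against their titles, and were kept with LacZ. The labels do not say how the numbered lines were derived, whether each is 1 clone, or which promoter drives the transgene. They name no separate cultures beyond the line numbers, so p-values measure only the spread between these libraries.

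Library totals were 18512887 to 22584628 estimated reads. Adcy10, the gene the study set out to express, went against the time labels and followed the line number. Its level was 366, 371 and 339 CPM in line 6 at the labels t0, t6 and t48, 200, 181 and 199 CPM in line 7, and 0.671, 1.19 and 1.22 CPM in line 16, while no LacZ library was above 0.167 CPM. Groups are therefore called by their labels throughout. Of 7 melanocyte markers, 5 were under 0.5 CPM in every library, among them Sox10, Mlana and Pmel, whereas Mitf, the master regulator of the melanocyte lineage, was at 2.75 to 5.43 CPM. Of 7 fibroblast markers, the collagen genes Col1a1, Col1a2 and Col3a1 were at 1650 CPM or more in every library. Pdgfrb was at 153 to 225 CPM, Pdgfra at 12.6 to 260 CPM and Dcn at 3.13 to 18.4 CPM, while Thy1 was at 0.0944 CPM or less. The summed level of the 7, most of it from the collagens, was 16000 to 17100 CPM in the NLS t48 libraries and 6890 to 12200 CPM in the libraries of the other groups. Of 6 leukocyte markers, 4 were under 0.5 CPM in every library, among them Ptprc at 0.0495 CPM or less, whereas Cd68 was at 5.62 to 14.4 CPM. The part of these levels in the patterns below was not tested.

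The 10 genes belong to different systems. Tshz3, Zfp532 and Setbp1 encode nuclear proteins that act on transcription or chromatin, Igf2bp3 and Spats2l encode proteins linked to RNA, Cadm1 and Adam23 encode adhesion proteins of the cell surface, Armcx2 and Prelid2 encode proteins linked to mitochondria, and Slc8a1 encodes a calcium transporter. Genes of this kind can be held silent in one cell population and used in another closely related one, often through the chromatin and DNA methylation of the promoter, and cells descended from one another tend to keep such a state. In bulk RNA, a lower level can come from fewer cells that use the gene or from less RNA in each cell, and these cannot be told apart.

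Tshz3, Igf2bp3 and Adam23 had the same on and off pattern over the 5 label groups, so the promoters of these 3 are shown. Each is the 250 bases before the start site in RefSeq, on GRCm38.p6 coordinates, written 5′ to 3′ on the strand of the gene, with the dinucleotide CG, the site of DNA methylation, in capitals. The window of Tshz3 is chr7:36697868-36698117 on the plus strand, that of Adam23 is chr1:63445641-63445890 on the plus strand, and that of Igf2bp3 is chr6:49214955-49215204 on the minus strand.
Tshz3: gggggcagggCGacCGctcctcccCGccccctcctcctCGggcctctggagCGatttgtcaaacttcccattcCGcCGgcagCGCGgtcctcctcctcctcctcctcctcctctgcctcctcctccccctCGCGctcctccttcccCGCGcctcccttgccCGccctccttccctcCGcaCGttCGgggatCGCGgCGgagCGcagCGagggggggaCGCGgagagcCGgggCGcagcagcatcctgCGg
Adam23: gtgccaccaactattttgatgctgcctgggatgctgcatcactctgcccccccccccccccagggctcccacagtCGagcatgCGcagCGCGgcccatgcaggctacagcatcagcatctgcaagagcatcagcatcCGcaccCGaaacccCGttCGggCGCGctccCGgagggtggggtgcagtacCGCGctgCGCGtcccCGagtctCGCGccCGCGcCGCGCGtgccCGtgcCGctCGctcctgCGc
Igf2bp3: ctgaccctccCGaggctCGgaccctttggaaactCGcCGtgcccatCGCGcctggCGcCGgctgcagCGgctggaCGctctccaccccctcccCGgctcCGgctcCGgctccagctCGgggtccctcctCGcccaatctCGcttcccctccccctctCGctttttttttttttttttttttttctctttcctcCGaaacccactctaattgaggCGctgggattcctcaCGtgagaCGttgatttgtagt

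All 3 windows were rich in CG. Over the 300 bases that also include 50 after the start site, Tshz3 held 33 CG, Adam23 31 and Igf2bp3 25. The ratio of CG found to CG expected from the base composition was 0.797 in Tshz3, 0.879 in Adam23 and 0.982 in Igf2bp3, against a median of 0.384 over 32851 such windows in the table, of which 35.8% reached 0.6. The windows of Spats2l, Armcx2 and Slc8a1, the other members in the table, had ratios of 0.258, 0.26 and 0.484. The shown windows did not all cover the start in use: transcripts that begin within 100 bases of the start site held 100% of the reads of Tshz3, 99.1% of those of Igf2bp3 and 46.2% of those of Adam23, but 30.7% for Armcx2, 2.07% for Slc8a1 and 0.406% for Spats2l. Cadm1, Setbp1, Prelid2 and Zfp532 were not in the table. On both strands, the cAMP response element TGACGTCA was in none of the 6 windows and in 1.79% of all windows, and its shorter core TGACG was in none of the 6 and in 20.8% of all. The AP-1 letters TGANTCA were in none of the 6 and in 7.81% of all windows, and TATAAA was in none and in 13.6%. The TEAD letters GGAATG were in the window of Tshz3 and in 14.7% of all, and the E-box CACGTG was in that of Igf2bp3 and in 7.15% of all. These are matches of letters only.

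**Figure D1:**
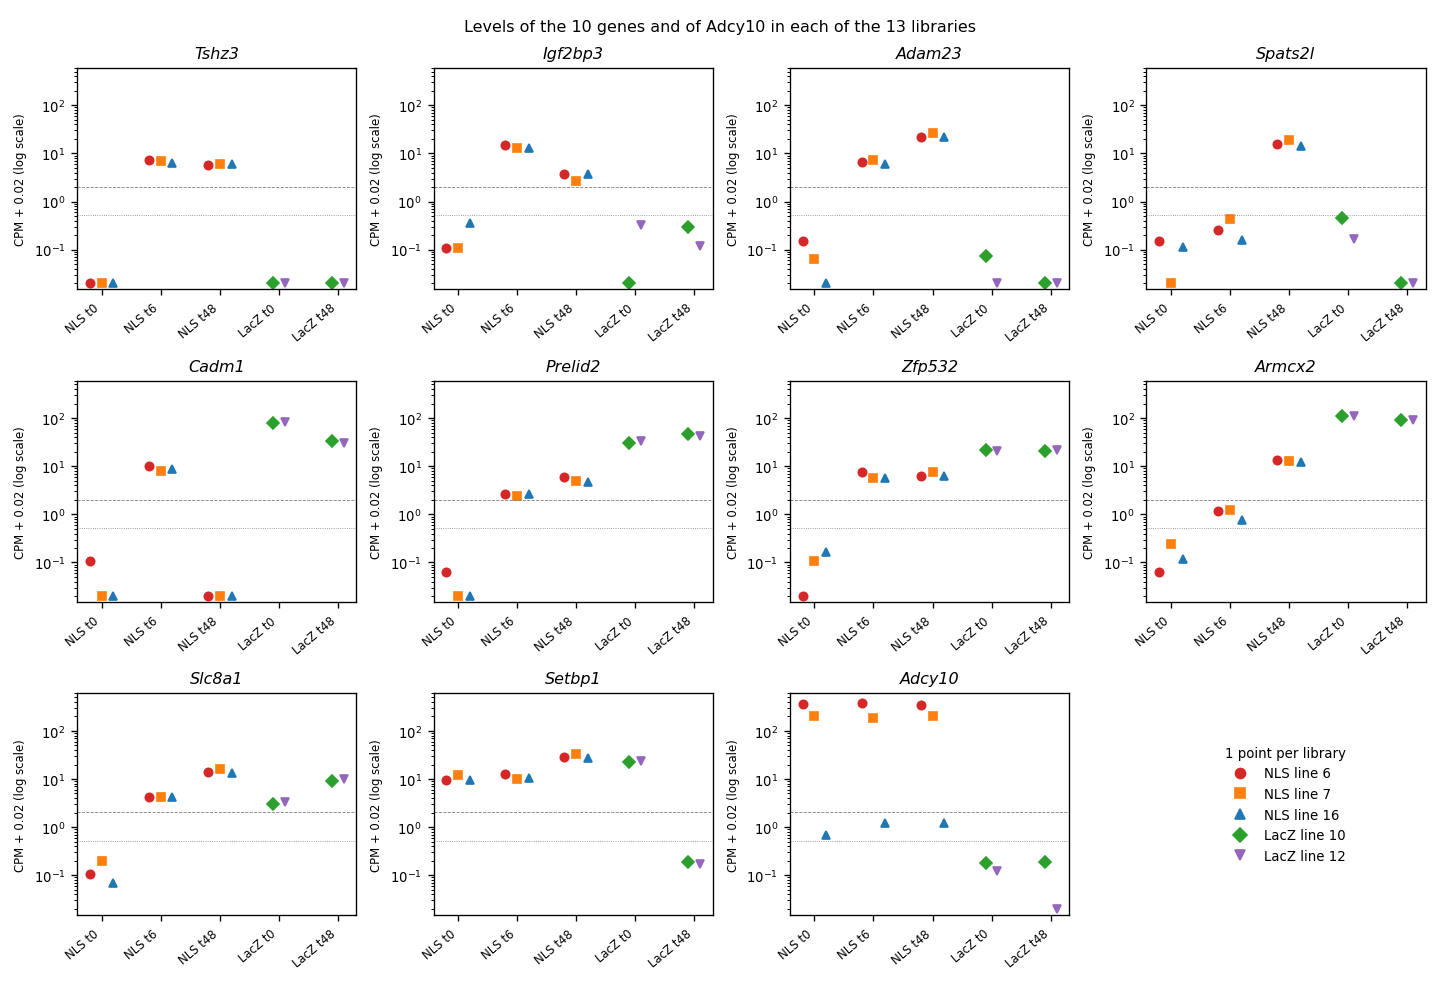
Level of each of the 10 genes and of Adcy10 in each library, as CPM + 0.02 on a log axis, by label group, with 1 point per library coloured by line number. Dotted and dashed lines mark 0.5 and 2 CPM. The libraries of a group lie together in the 10 genes, as the choice of these genes required. Adcy10, which was not chosen in this way and is no reference for the 10, separates lines 6, 7 and 16 within each NLS group.

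Over the 10 genes and 5 groups, 29 of the 50 combinations were on, 20 were off and 1 lay between. The highest library of an off group was at 0.429 CPM, for Spats2l in LacZ t0, and the lowest library of an on group was at 2.44 CPM, for Prelid2 in NLS t6. The combination just outside both limits was Armcx2 in NLS t6, with 0.735 to 1.24 CPM. In 6 of the 20 off combinations no library had a read. Under the label NLS t0, 9 of the 10 genes were off and 1 was on, against 8 on in NLS t6, 9 on in NLS t48, 6 on in LacZ t0 and 5 on in LacZ t48. Within an on group, the highest library was 1.01 to 1.41 times the lowest, with a median of 1.12. The variance between libraries of an on group was 0.0107 to 7.93 times that of counting alone, with a median of 1.68, and at most 2 times in 18 of the 29. The choice of the genes bears on this spread, since it required the libraries of a group to share a state. These values are a description, and no trait of the genes is read from them.

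Such patterns were rare among all genes. Of the 13044 tested genes, 15 (0.115%) were off in NLS t0 and on in NLS t6, 7 of them from the 10, and 33 (0.253%) were off in NLS t0 and on in NLS t48, 8 of them from the 10. Off in NLS t6 and on in NLS t48 were 17 (0.13%), 8 of them also among those 33, with Spats2l as the member among them. The opposite directions were almost empty. Cadm1 was the 1 gene (0.00767%) off in NLS t48 and on in NLS t6, Has1 was the 1 gene (0.00767%) off in NLS t6 and on in NLS t0, and 0 genes were off in NLS t48 and on in NLS t0. In all, 48 genes (0.368%) passed for at least 1 pair of NLS labels. Between the LacZ labels 22 genes (0.169%) passed, 16 (0.123%) of them off in LacZ t48 and on in LacZ t0, Setbp1 included, and 6 (0.046%) in the other direction. The members were chosen on these contrasts, so nothing is read from their share.

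The same rule was applied to line numbers in place of labels. Over 3 libraries of each NLS line, 2 genes (0.0153%), Gm15899 and Gm49378, passed for some pair of lines, and over 2 libraries of each LacZ line 2 genes (0.0153%), Gm13370 and Gm4353, passed. None of the 10 was among them, and by their choice none could be, since the lines of a group shared one state in every member.

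**Figure D2:**
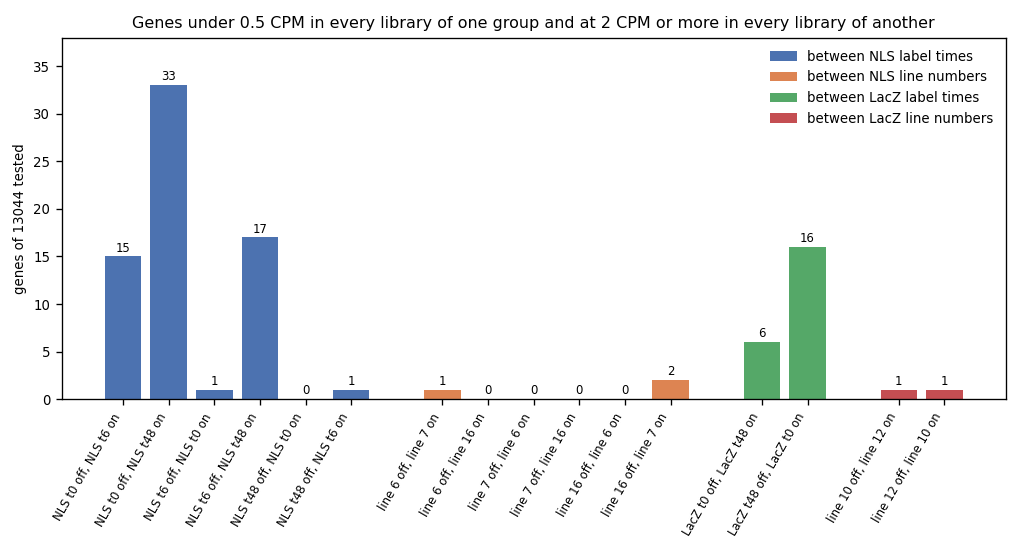
Number of tested genes that were under 0.5 CPM in every library of one group and at 2 CPM or more in every library of another, for each ordered pair of NLS labels, NLS lines, LacZ labels and LacZ lines. The highest bars are the 33 genes off in NLS t0 and on in NLS t48 and the 17 off in NLS t6 and on in NLS t48, while no pair of lines exceeds 2.

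Tshz3 encodes a zinc finger transcription factor of the teashirt family (chr7:36698118-36773553, plus strand). It had no read in any library labelled NLS t0, LacZ t0 or LacZ t48. In the NLS t6 libraries it was at 7.16, 7.05 and 6.38 CPM in lines 6, 7 and 16, and in NLS t48 at 5.84, 5.91 and 5.95 CPM. All 6 of these libraries thus lay above the other 7, and the NLS t6 libraries lay above the NLS t48 libraries with no overlap. Against a floor of 3 reads per library, which stands for 0.136 to 0.16 CPM and covers counting error only, the level in NLS t6 was at least 50.5-fold higher than in NLS t0, at least 44.2-fold higher than in LacZ t0 and at least 42.9-fold higher than in LacZ t48. Nearly all of its reads, 99.6%, were assigned to the coding transcript Tshz3-201. The genes whose profile over the 13 libraries was most like it, by Pearson correlation of log2(CPM + 0.5), were Sall3 (r = 0.993), Cers4 (0.993) and Myo18b (0.988). Sall3, another zinc finger gene, averaged 2.66 CPM in NLS t6 and 2.4 CPM in NLS t48 and was at 0.025 CPM or less on average in the other groups. These correlations, like those given for other members, describe 13 libraries that share 5 label groups.

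Genes related to each member were tested between labels with edgeR. Since libraries of a number come from the same cell line, counts with the line number as a block are given beside the main ones where they differ. The SE, adjusted p and shares of all tested genes given with listed genes and neighbours are from the fit without this block, unless stated. The block lost none of the 149 calls among 503 tests of listed genes and neighbours and added 95, while over all genes calls rose from 2716 to 4527 in NLS t6 against NLS t0, from 3402 to 5188 in NLS t48 against NLS t0 and from 2419 to 4308 between the LacZ labels. Of 4 tested relatives and partners of Tshz3, the corepressor gene Ctbp2 was called higher in NLS t6 than in NLS t0 (log2 fold change 0.39, SE 0.09, adjusted p = 0.00835 by edgeR), a call lost without line 6 (adjusted p = 0.0531). Its sister gene Tshz1 was at 25.9 ± 1.5 CPM (SD, n = 3) in NLS t0 and fell to 18.6 ± 1.47 CPM in NLS t48 (adjusted p = 0.00576 by edgeR). That call too was lost without line 6, with an adjusted p of 0.0782.

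Igf2bp3 encodes an oncofetal RNA-binding protein that binds mRNAs such as that of Igf2 (chr6:49085223-49214957, minus strand). It was at 0.0885, 0.0873 and 0.335 CPM in the NLS t0 libraries of lines 6, 7 and 16. With the label NLS t6 the same lines were at 14.7, 13 and 12.9 CPM, and with NLS t48 at 3.77, 2.67 and 3.77 CPM. The LacZ libraries of lines 10 and 12 were at 0 and 0.3 CPM at t0 and at 0.278 and 0.102 CPM at t48. All NLS t6 libraries lay above all NLS t48 libraries, and both groups lay above the rest. The ratio of NLS t6 to NLS t0 was 81.6 (95% counting interval 45.4 to 164), and that of NLS t48 to NLS t0 was 20.3 (11.1 to 41.4). The transcript Igf2bp3-201 held 99.1% of the reads. Its nearest profiles were those of Thap12 (r = 0.982), Prpf3 (0.973) and Nup98 (0.966), genes that were expressed in every group, with Thap12 at 98.7 CPM on average in NLS t0 and 150 CPM in NLS t6.

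Listed with Igf2bp3 were relatives, oncofetal genes, Cd44 and Myc, of which 7 were tested. Of these, 3 were called higher and 0 lower in NLS t6 against NLS t0, and 3 higher and 2 lower in NLS t48 against NLS t0. With the line block these counts were 5 and 1, and 4 and 3. Without it, 11.6% of all tested genes were called higher and 9.23% lower in the first comparison, and 14.8% and 11.3% in the second. Igf2bp1, the family member closest in role, rose from 9.56 ± 1.84 CPM (SD, n = 3) in NLS t0 to 17 ± 0.916 in NLS t6 and 19.3 ± 2.01 in NLS t48 (log2 fold changes 0.83 and 1.01, SE 0.14 each, adjusted p = 0.00102 and 0.000131 by edgeR). Igf2, which encodes a fetal growth factor, was at 0.558 ± 0.0711 CPM in NLS t0, 0.274 ± 0.0385 in NLS t6 and 7.72 ± 0.414 in NLS t48. Its rise from NLS t0 to NLS t48 had a log2 fold change of 3.78 (SE 0.23, adjusted p = 8.72e-08 by edgeR), whereas its lower level in NLS t6 was called with the line block alone. Hmga2, an oncofetal chromatin gene, rose by 0.73 (SE 0.1) on the log2 scale in NLS t6 and fell by 0.79 (SE 0.1) in NLS t48, both against NLS t0, with adjusted p = 0.000244 and 8.32e-05 by edgeR. Igf2 and Hmga2 were not called between the LacZ labels (adjusted p = 0.803 and 0.879).

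Adam23 encodes a membrane protein of the disintegrin family that lacks protease activity and binds the LGI proteins (chr1:63445891-63596276, plus strand). The NLS t0 libraries of lines 6, 7 and 16 were at 0.133, 0.0437 and 0 CPM. The NLS t6 libraries were at 6.51, 7.36 and 6.11 CPM and the NLS t48 libraries at 21.8, 26.5 and 21.7 CPM. LacZ line 10 at t0 had a single read (0.0536 CPM), and the other 3 LacZ libraries had 0. The order of groups was thus opposite to that of Igf2bp3, with NLS t48 above NLS t6 and no overlap between them. The ratio of NLS t48 to NLS t0 was 389 (152 to 1430), that of NLS t6 to NLS t0 was 110 (42.7 to 406), and NLS t48 was at least 146-fold higher than LacZ t48. The nearest profiles were those of Fam49a (r = 0.984), Flrt3 (0.977) and Fbln1 (0.973). Fbln1, a gene of the extracellular matrix, averaged 0.699, 3.86 and 19.9 CPM in NLS t0, t6 and t48.

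Of 16 listed relatives and partners of Adam23 13 were tested, of which 2 were called higher and 1 lower in NLS t6 against NLS t0, and 3 higher and 1 lower in NLS t48 against NLS t0 (2 and 2, and 3 and 2, with the line block). Adam12, an active protease of the same family, was at 24.7 ± 6.4 CPM (SD, n = 3) in NLS t0, 58.2 ± 10.3 in NLS t6 and 74.4 ± 9.12 in NLS t48, with log2 fold changes of 1.24 and 1.59 (SE 0.19 each, adjusted p = 0.00103 and 0.000125 by edgeR). Between the LacZ labels it fell by 0.97 (SE 0.23, adjusted p = 0.0142 by edgeR). That call was lost in 5 of 9 alternatives, without any 1 LacZ library (log2 fold change -1.02 to -0.91) and without the filter on low counts. Lgi3, which encodes one of the secreted LGI proteins, rose by 0.62 (SE 0.11) in NLS t48 against NLS t0 and by 1.17 (SE 0.16) between the LacZ labels, on the log2 scale, with adjusted p = 0.00107 and 0.000291 by edgeR. In NLS t6 against NLS t0 it fell by 0.34 (SE 0.11, adjusted p = 0.0461 by edgeR), a call lost in 10 of 14 alternatives.

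Spats2l encodes a cytoplasmic protein found in stress granules (chr1:57774162-57948394, plus strand). It was the only one of the 10 on in a single group. The NLS t48 libraries were at 15.5, 18.9 and 14.1 CPM in lines 6, 7 and 16. The NLS t0 libraries were at 0.133, 0 and 0.0958 CPM, the NLS t6 libraries at 0.234, 0.415 and 0.138 CPM, the LacZ t0 libraries at 0.429 and 0.15 CPM, and the LacZ t48 libraries had no read. The NLS t48 libraries lay apart from the other 10, which were all off, at 0 to 0.429 CPM. Among those, NLS t6 overlapped LacZ t0, and NLS t0 overlapped LacZ t48. The ratio of NLS t48 to NLS t6 was 63.7 (39.0 to 112), and to LacZ t0 57.4 (31.9 to 115). The nearest profiles were those of Ror1 (r = 0.989), Auts2 (0.986) and Lpl (0.984), and Lpl, the lipase of circulating triglycerides, averaged 4.28 CPM in NLS t48 and at most 0.303 CPM in the other groups. Of 8 listed genes, its relative Spats2 and stress granule genes, all were tested, and 1 was called higher and 0 lower in NLS t6 against NLS t0, and 3 higher and 0 lower in NLS t48 against NLS t0 (2 and 0, and 5 and 1, with the line block). The changes were small: Spats2 rose by 0.22 (SE 0.05, adjusted p = 0.00439 by edgeR) on the log2 scale in NLS t48, a call lost without line 6 (adjusted p = 0.0604), and the granule gene Tial1 rose by 0.29 (SE 0.05, adjusted p = 0.000806 by edgeR) in NLS t6.

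Cadm1 encodes an adhesion molecule of the immunoglobulin family that joins neighbouring cells and is often silenced in tumours (chr9:47530173-47857637, plus strand). It was the one gene off at both NLS t0 and NLS t48 and on between them. In NLS t0, line 6 was at 0.0885 CPM, which is 2 reads, and lines 7 and 16 had 0, and in NLS t48 all 3 lines had 0. In NLS t6 lines 6, 7 and 16 were at 10.3, 7.78 and 8.54 CPM. LacZ lines 10 and 12 were at 78.2 and 81.8 CPM at t0 and at 32.6 and 30.7 CPM at t48. Each step of this order, NLS t0 or t48, NLS t6, LacZ t48 and LacZ t0, was without overlap. NLS t6 was 295 times NLS t0 (81.3 to 2440) and at least 61.2-fold higher than NLS t48. LacZ t0 was at least 553-fold higher than NLS t48. The nearest profiles were those of Gcnt4 (r = 0.979), Ndst3 (0.976) and Prkx (0.969), of which the sulfotransferase gene Ndst3 averaged 3.03, 7.3 and 1.99 CPM in NLS t0, t6 and t48 and 19.3 CPM in LacZ t0.

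Of 11 listed relatives and partners of Cadm1, 6 were tested, with 3 called higher and 0 lower in NLS t6 and likewise 3 higher and 0 lower in NLS t48, each against NLS t0 (4 and 0, and 3 and 0, with the line block). Epb41l3, which encodes a cytoskeletal protein that binds the tail of Cadm1, did not follow Cadm1. It was at 0.56 ± 0.107 CPM (SD, n = 3) in NLS t0, 1.41 ± 0.375 in NLS t6 and 12.3 ± 1.88 in NLS t48, and the rise to NLS t48 had a log2 fold change of 4.44 (SE 0.25, adjusted p = 3.35e-08 by edgeR). In the LacZ libraries, where Cadm1 was high, Epb41l3 was at 0.462 ± 0.123 CPM at t0 and 0.105 ± 0.0693 at t48 (SD, n = 2). The adhesion gene Nectin2 rose in both comparisons, by 1.11 and 1.4 on the log2 scale (SE 0.14 each, adjusted p = 0.000112 and 7.64e-06 by edgeR).

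Prelid2, Zfp532 and Slc8a1 were off in NLS t0 alone and on in the other 4 groups. Prelid2 encodes a member of a family that carries lipids between the mitochondrial membranes (chromosome 18, 41875600 to 41951242, minus strand). Its NLS t0 libraries held 1 read in all, in line 6 (0.0443 CPM). The NLS t6 libraries of lines 6, 7 and 16 were at 2.67, 2.44 and 2.66 CPM and the NLS t48 libraries at 5.93, 4.93 and 4.62 CPM. The LacZ libraries of lines 10 and 12 were at 30.3 and 33.4 CPM at t0 and at 47.2 and 43.3 CPM at t48. These groups did not overlap. Because the NLS t0 group held 1 read, the ratios are loose: that of NLS t6 to NLS t0 was 172 with an interval of 30.5 to 6840, and that of LacZ t0 to NLS t0 was 2120 with an interval of 379 to 83700. Nearest to its profile were those of Sytl2 (r = 0.986), Grik5 (0.972) and Phf14 (0.971). Of 12 listed genes of this lipid family and of cardiolipin synthesis 11 were tested, and 1 was called higher in NLS t6 against NLS t0 and none in either direction in NLS t48 against NLS t0 by edgeR (3 higher and 1 lower, and 0 and 1, with the line block). In the first fit the 1 was Ptdss1, which makes phosphatidylserine, at a log2 fold change of 0.28 (SE 0.06, adjusted p = 0.00297 by edgeR), a call lost without line 6 (adjusted p = 0.0699).

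Zfp532 encodes a zinc finger protein of the nucleus (chromosome 18, 65579912 to 65689443, plus strand). The NLS t0 libraries of lines 6, 7 and 16 were at 0, 0.0873 and 0.144 CPM. The NLS t6 libraries were at 7.58, 5.55 and 5.74 CPM and the NLS t48 libraries at 6.17, 7.46 and 6.21 CPM, so these groups overlapped. LacZ lines 10 and 12 were at 22.1 and 20.2 CPM at t0 and at 20.4 and 21.6 CPM at t48, which also overlapped. Zfp532 thus had 3 levels, near 0 in NLS t0, intermediate in the other NLS libraries and highest in LacZ. The ratio of NLS t6 to NLS t0 was 83.8 (35.6 to 259) and that of LacZ t0 to NLS t0 was 280 (120 to 866). Its profile was most like those of Arhgef17 (r = 0.976), Mocos (0.975) and Pgap2 (0.973), and Mocos, on average, was at 0.0146 CPM in NLS t0, 2.27 in NLS t6 and 4.9 in LacZ t0. All 9 listed relatives and chromatin partners were tested, with 3 called higher and 1 lower in NLS t6, and 4 higher and 0 lower in NLS t48, against NLS t0 (6 and 1, and 4 and 0, with the line block). Zfp592, which encodes a related zinc finger protein, rose by 0.42 and 0.39 on the log2 scale (SE 0.06 each, adjusted p = 0.000566 and 0.000654 by edgeR), and the bromodomain gene Brd3 by 0.32 and 0.55 (SE 0.06 each, adjusted p = 0.00189 and 1.82e-05 by edgeR).

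Slc8a1 encodes a sodium-calcium exchanger of the plasma membrane that moves calcium out of the cell (chr17:81373105-81738377, minus strand). The NLS t0 libraries of lines 6, 7 and 16 were at 0.0885, 0.175 and 0.0479 CPM. The NLS t6 libraries were at 4.31, 4.15 and 4.27 CPM and the NLS t48 libraries at 14.2, 16.5 and 13 CPM. LacZ lines 10 and 12 were at 2.95 and 3.25 CPM at t0 and at 8.95 and 10.1 CPM at t48. No groups overlapped, and the level was higher at the label t48 than at t0 in both kinds of line, from 3.1 ± 0.21 to 9.54 ± 0.837 CPM (SD, n = 2) in LacZ. The ratio of NLS t48 to NLS t0 was 139 (67.2 to 347). Dkk3 (r = 0.967), Map3k20 (0.967) and Slc12a7 (0.958) came nearest to its profile. Of 25 listed exchangers, pumps and channels of calcium handling, 17 were tested. Against NLS t0, 3 were called higher and 2 lower in NLS t6, and 4 higher and 4 lower in NLS t48. Between the LacZ labels 3 were called higher and 4 lower. With the line block these counts were 5 and 4, 5 and 5, and 5 and 4. Without it, 8.68% of all tested genes were called higher and 9.87% lower between the LacZ labels. Stim1, the calcium sensor of the endoplasmic reticulum, rose by 1.05 (SE 0.11, adjusted p = 3.36e-05 by edgeR) on the log2 scale in NLS t6 against NLS t0. In LacZ it fell from 14.8 ± 1.11 CPM at t0 to 2.43 ± 0.33 CPM at t48 (SD, n = 2, adjusted p = 6.44e-07 by edgeR). The receptor gene Itpr1, which releases calcium from that store, rose by 0.46 (SE 0.07, adjusted p = 0.000397 by edgeR) in NLS t48 against NLS t0.

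Armcx2 encodes an armadillo-repeat protein of a family that lies on the X chromosome and is tied to mitochondria (chrX:134804145-134809221, minus strand). It was off in NLS t0, with 0.0443, 0.218 and 0.0958 CPM in lines 6, 7 and 16. In NLS t6 the lines were at 1.17, 1.24 and 0.735 CPM, between the limits, and in NLS t48 at 13.2, 12.9 and 12.3 CPM. The LacZ libraries of lines 10 and 12 were at 108 and 110 CPM at t0 and at 91.1 and 92.0 CPM at t48. No groups overlapped, so the libraries fell into 5 steps from NLS t0 to LacZ t0. The ratio of NLS t48 to NLS t0 was 106 (53.8 to 247) and that of LacZ t0 to NLS t0 was 904 (458 to 2090). Diras2 (r = 0.988), Mmp16 (0.988) and Cyba (0.986) had the most similar profiles. Of 8 listed relatives 4 were tested, with 2 called higher and 0 lower in NLS t6, and 1 higher and 0 lower in NLS t48, against NLS t0 (2 and 0 in both with the line block). Armcx3, whose start lies 52.6 kb from that of Armcx2, rose from 4.2 ± 0.25 CPM (SD, n = 3) in NLS t0 to 24.0 ± 1.13 in NLS t48 (log2 fold change 2.51, SE 0.11, adjusted p = 2.44e-09 by edgeR). In LacZ it was at 20.7 ± 1.05 CPM at t0 and 14.7 ± 1.52 at t48 (SD, n = 2).

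Setbp1 encodes a protein that binds the oncoprotein SET and acts on chromatin (chromosome 18, 78750380 to 79109391, minus strand). It was the one gene of the 10 on in NLS t0, and the one off in LacZ t48 alone. The LacZ libraries of lines 10 and 12 were at 23.0 and 23.3 CPM at t0 and at 0.167 and 0.154 CPM at t48, which is 3 reads in each. The NLS libraries of lines 6, 7 and 16 were at 9.65, 11.9 and 9.39 CPM at t0, 12.9, 9.8 and 10.7 CPM at t6 and 28.3, 32.8 and 27.8 CPM at t48. NLS t0 and NLS t6 overlapped, and NLS t48 lay above both. The ratio of LacZ t0 to LacZ t48 was 145 (66.3 to 396). The nearest profiles were less like it than those of the other members were, B3gnt9 (r = 0.953), Lig4 (0.947) and Plekhg4 (0.945), and none of these was near 0 in LacZ t48, where B3gnt9 averaged 14.3 CPM. Of 10 listed partners and targets of Setbp1, 8 were tested. Between the LacZ labels 0 were called higher and 1 lower by edgeR (5 and 1 with the line block). The 1 was Runx1, a transcription factor of blood formation, which fell by 0.35 (SE 0.11, adjusted p = 0.0446 by edgeR). That call was lost in 4 of 9 alternatives, those that left out any 1 LacZ library (log2 fold change -0.42 to -0.27).

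The members were compared with one another per length, in TPM, a unit that divides the estimated counts by transcript length. In LacZ t48 the order was Prelid2 at 89.3 ± 6.71 TPM, Armcx2 at 40.5 ± 1.72, Cadm1 at 18.1 ± 0.828, Zfp532 at 7.04 ± 0.118 and Slc8a1 at 2.27 ± 0.0775 (SD, n = 2). In NLS t48 it was Adam23 at 15.9 ± 1.61 TPM, Spats2l at 11.4 ± 2.06, Prelid2 at 10.9 ± 1.02, Armcx2 at 6.09 ± 0.183, Setbp1 at 4.89 ± 0.508, Slc8a1 at 4.04 ± 0.422, Zfp532 at 2.38 ± 0.289, Tshz3 at 2.25 ± 0.106 and Igf2bp3 at 1.36 ± 0.245 (SD, n = 3). Spats2l and Prelid2, and Zfp532 and Tshz3, did not differ there beyond their spread. Over the 13 libraries the closest pairs of members were Tshz3 and Adam23 (r = 0.96), Armcx2 and Prelid2 (0.96), Tshz3 and Igf2bp3 (0.95), and Prelid2 and Zfp532 (0.95), and the most opposed were Cadm1 and Spats2l (r = -0.53). The members were chosen for these patterns, so the values are a description.

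The estimated counts were also followed down to transcripts. A single transcript held nearly all reads in Tshz3, Igf2bp3, Prelid2 (Prelid2-202, 95.6%) and Setbp1, which has 1 transcript in the files. In Cadm1 the leading transcript, Cadm1-203, held 75.0% of the reads, in Slc8a1 60.4%, in Zfp532 53.1%, in Spats2l 51.8%, in Armcx2 45.2% and in Adam23 42.9%. The shares of Adam23 moved between libraries of 1 group. In NLS t6 the coding transcript Adam23-204 took between 0 and 57.4% of a library's Adam23 reads and the retained-intron transcript Adam23-209 between 0 and 63.4%. The split among similar transcripts is uncertain, because the quantification assigns a shared read by a statistical model; sums per gene are less affected.

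**Figure D3:**
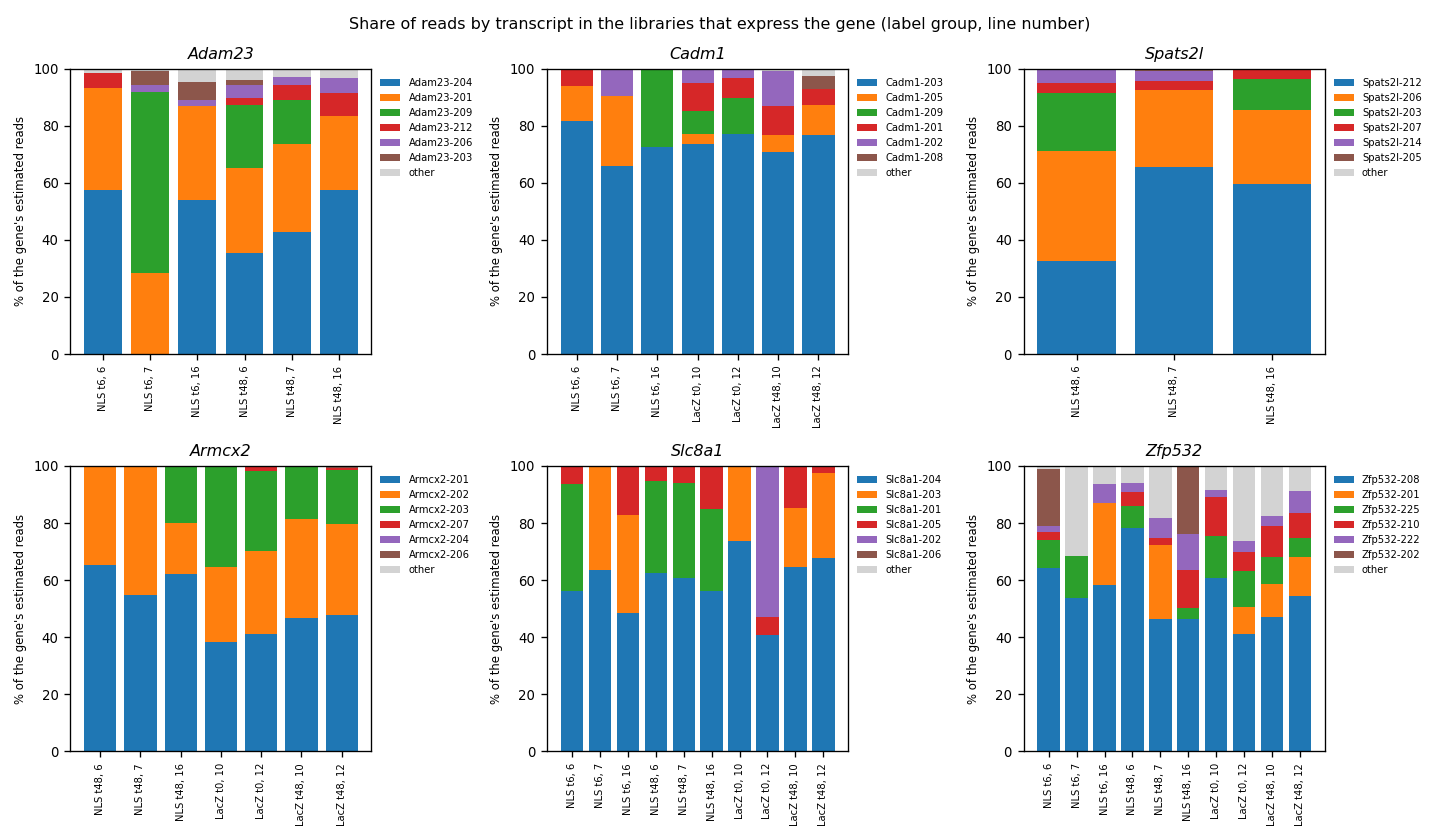
Share of each gene's estimated reads assigned to each of its transcripts, in percent, in each library of the groups in which the gene was on, for the 6 genes with several transcripts in use. Each bar is 1 library, and the colours are the leading transcripts of the gene; in Adam23, the share of Adam23-204 runs from 0 to 57.4% within NLS t6.

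Differences between line numbers are given as a description, because the choice of the 10 genes required every line of a group to be on or off together and so limited how far lines could differ. With the label group as a block, edgeR called none of the 10 genes between lines 6 and 16, 7 and 16, 7 and 6, or 12 and 10, where 2.26%, 22.6%, 11.1% and 0.123% of all tested genes were called, and DESeq2 called none of them either. At an unadjusted p below 0.05 the counts were 0, 0, 1 and 0 of 10. Nothing is read from these counts, which the choice bears on. The log2 fold changes of the 10 genes ran from 0.01 to 0.29 between lines 6 and 16, from -0.28 to 0.45 between lines 7 and 16, and from -0.43 to 0.26 between lines 7 and 6. Adcy10, which was not chosen in this way and is no reference for the 10, had values of 8.44 (SE 0.11), 7.55 (SE 0.12) and -0.89 (SE 0.06) in the same 3 comparisons, with adjusted p of 1.01e-14, 6.58e-14 and 2.27e-06 by edgeR. Between the LacZ lines the range was -2.45 to 0.56, and its low end was Adam23, which had 1 read in the 4 LacZ libraries.

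**Figure D4:**
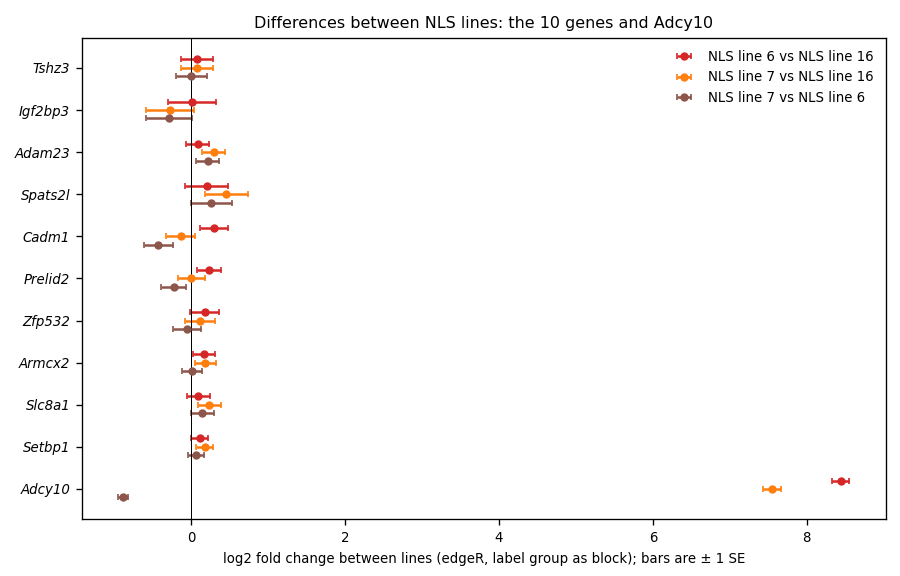
Log2 fold change between NLS lines for the 10 genes and Adcy10, from edgeR with the label group as a block; bars are ± 1 SE. The 10 genes lie between -0.43 and 0.45, a range that their choice limited. Adcy10, which is no reference for them, lies at 8.44 and 7.55 for lines 6 and 7 against line 16.

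The neighbours of the members on the chromosome were examined next, in the comparison that defined each member. Within 500 kb of the start sites of the 10 genes, 66 other protein-coding genes start, of which 32 were tested. None passed the on and off rule. Of the 32, 9 (28.1%) were called higher and 0 lower by edgeR. In the same fit 11.6% of all tested genes were called higher in NLS t6 and 14.8% in NLS t48, against NLS t0. With the line block, 12 of the 32 were called higher and 4 lower. Over all 13044 tested genes, calls in either direction then numbered 4527 and 5188 in these comparisons, against 2716 and 3402 without the block. Igf2bp3 had 4 called neighbours of 7 tested. Fam221a, 152.8 kb away, rose from 0.328 ± 0.132 CPM (SD, n = 3) in NLS t0 to 0.891 ± 0.23 in NLS t6. Its log2 fold change was 1.41 (SE 0.35, adjusted p = 0.0111 by edgeR), a call lost without line 6 or line 16 (adjusted p = 0.119 and 0.0637). Tmem176a and Tmem176b, adjacent membrane protein genes 374 and 373.5 kb away, rose by 5.19 (SE 0.23) and 4.23 (SE 0.24) on the log2 scale, with adjusted p = 1.01e-08 and 9.48e-08 by edgeR. Tmem176a was at 0.565 ± 0.28 CPM (SD, n = 3) in NLS t0, 20.6 ± 2.43 in NLS t6 and 4.94 ± 0.33 in NLS t48. Gpnmb, a glycoprotein gene known from pigment cells and 178.4 kb away, rose by 2.26 (SE 0.15, adjusted p = 4.14e-07 by edgeR), from 5.13 ± 1.04 CPM to 24.6 ± 0.943, and was at 12.0 ± 2.09 CPM in NLS t48. Like Igf2bp3, Tmem176a and Gpnmb were highest in NLS t6. Unlike Igf2bp3, which was off in both LacZ groups, Gpnmb was at 8.64 ± 0.00537 CPM in LacZ t0 and 17.5 ± 2.07 in LacZ t48 (SD, n = 2). Tmem176a was at 3.01 ± 0.517 and 3.36 ± 0.121 CPM there. The gene nearest to Igf2bp3, Tra2a at 49.1 kb, was at 77 ± 5.19 CPM in NLS t0 and 78.9 ± 0.747 in NLS t6 and was not called (adjusted p = 0.707 by edgeR).

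The ubiquitin ligase gene Sh3rf2, 102.4 kb from Prelid2, was at 0.016 ± 0.0277 CPM (SD, n = 3) in NLS t0, 0.585 ± 0.206 in NLS t6 and 1.38 ± 0.428 in NLS t48, with a log2 fold change of 4.79 (SE 0.72, adjusted p = 0.000463 by edgeR) in NLS t6. Around Armcx2, Armcx3 was called as given above, and Taf7l was called in NLS t48 (log2 fold change 1.03, SE 0.33, adjusted p = 0.0339 by edgeR), a call lost in 8 of 14 alternatives. Maip1 and Kctd18 near Spats2l rose by 0.33 and 0.35 on the log2 scale (SE 0.08 and 0.1, adjusted p = 0.0056 and 0.018 by edgeR). The call of Maip1 was lost in 2 of 14 alternatives, without line 6 (adjusted p = 0.0868) and without line 16 (0.0616). That of Kctd18 was lost in 5 of 14, among them without line 6, line 7 or line 16 (adjusted p = 0.0824, 0.0537 and 0.0965). Of 4 tested neighbours of Adam23 and 4 of Zfp532, none was called without the line block. With it, Ino80d and Fastkd2 near Adam23 were called higher (adjusted p = 0.0106 and 0.0478 by edgeR) and Eef1b2 near Adam23 and Lman1 near Zfp532 lower (0.0234 and 0.0222), all with log2 fold changes between -0.13 and 0.27 in the fit without it. Tshz3, Cadm1 and Setbp1 had no protein-coding neighbour in the window, and that of Slc8a1 was not tested.

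**Figure D5:**
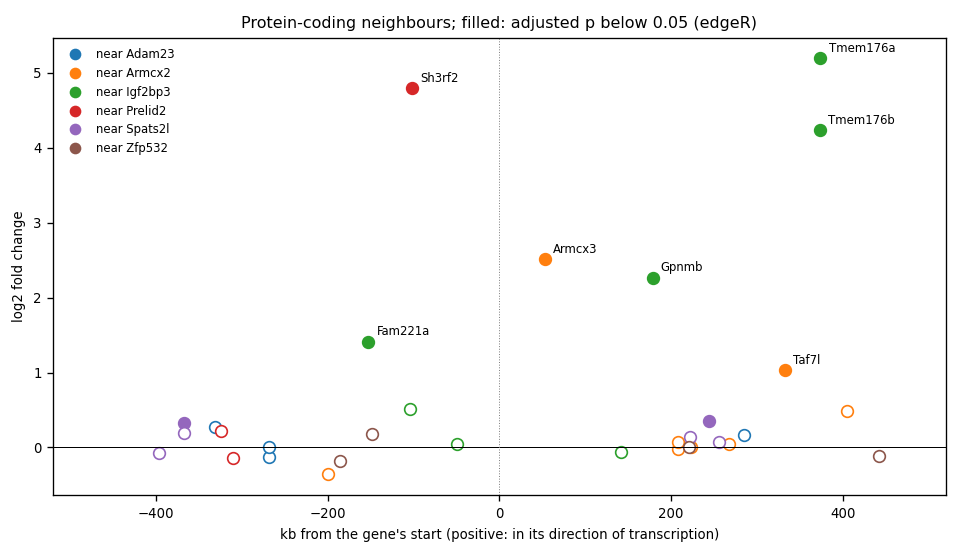
Log2 fold change of each tested protein-coding neighbour against the distance of its start from that of the member, in kb, in the comparison that defined the member; positive distances run in its direction of transcription. Filled points were called by edgeR without the line block. All 9 neighbours called in this fit are above 0, with Tmem176a at 5.19, Sh3rf2 at 4.79 and Tmem176b at 4.23.

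The members lie on 7 chromosomes, 3 of them on chromosome 18, which holds 2.69% of the tested genes and 6 (8.7%) of the 69 genes that passed the on and off rule for some pair of labels. Levels on this chromosome also differed as a whole between the kinds of line. Over its 260 genes with a mean of at least 5 CPM, the median difference of log2(CPM + 0.5) between LacZ t0 and NLS t0 was 0.58, and 78.5% were higher in LacZ t0, against a median of 0.00 over all 10056 such genes. Other chromosomes were shifted in this contrast too. Of 20 chromosomes, 6 had a median beyond 0.1, from -0.265 on chromosome 14 to 0.58 on chromosome 18. Lars, 311 kb from Prelid2, was at 591 ± 64.7 CPM (SD, n = 2) in LacZ t0 and 288 ± 10.3 CPM (SD, n = 3) in NLS t0. Near Zfp532, Malt1, 149 kb away, was at 26.0 ± 2.06 and 11.2 ± 1.63 CPM, but Alpk2, 185.8 kb away, at 6.52 ± 1.03 and 5.94 ± 0.798 CPM. Between LacZ t48 and LacZ t0, the contrast of Setbp1, the chromosome 18 median was 0.01. The medians there ran from -0.25 on chromosome 12 to 0.12 on chromosome 14, neither of which holds a member. Between NLS labels chromosome 18 differed little, with medians of 0.02 (t6 against t0) and -0.05 (t48 against t0), while chromosome 7, which holds Tshz3, had medians of 0.28 and 0.22, and chromosome 1, which holds Adam23 and Spats2l, had 0.07 and 0.19. The X chromosome, with Armcx2, had 0.13 and 0.01, and the chromosomes of Igf2bp3 (6), Cadm1 (9) and Slc8a1 (17) had medians of -0.02 and -0.01, -0.06 and -0.07, and -0.05 and -0.06. The highest median in NLS t6 against NLS t0, 0.29, was that of chromosome 13, which holds no member. On chromosome 7, 91.4% of 717 genes were higher in NLS t6 than in NLS t0. Between the NLS lines, each taken over its 3 libraries, no chromosome had a median beyond 0.1 in any of the 3 comparisons. These shifts are smaller than the on and off differences of the members, and their part in the patterns was not tested.

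Genes linked to DNA methylation, to Polycomb marks or to other silencing marks of histones were listed because they act on silent promoters. All 31 were tested. The last kind includes Trim28, Suv39h1 and Setdb1, which are among the 7 called higher in NLS t6 against NLS t0. By edgeR, 7 were called higher and 1 lower in NLS t6 against NLS t0, 7 higher and 3 lower in NLS t48 against NLS t0, 5 higher and 7 lower in NLS t48 against NLS t6 (14.6% of all tested genes were called higher and 13.6% lower in the last), and 3 higher and 0 lower between the LacZ labels. With the line block these counts were 12 and 1, 12 and 9, 6 and 11, and 5 and 4. The list's median log2 fold changes were 0.13, 0.12, -0.02 and 0.02, beside medians of all genes of -0.00, -0.01, 0.00 and 0.00. Ezh2 and Eed, subunits of the Polycomb complex that deposits a silencing mark on histone H3, rose by 0.39 (SE 0.06) and 0.42 (SE 0.07) in NLS t6 against NLS t0, with adjusted p = 0.000391 and 0.00147 by edgeR. In NLS t48, the demethylase gene Kdm6b, which removes that mark, rose by 0.53 (SE 0.1), Tet3, which oxidises methylated cytosine, by 0.53 (SE 0.08), and Phf19, an accessory subunit of the same complex, fell by 0.5 (SE 0.07), with adjusted p = 0.00151, 0.000203 and 0.000131 by edgeR. No methylation or chromatin was measured.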

How the data were processed

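Total RNA from Trizol extraction went into stranded Truseq mRNA libraries read from both ends, per the labels' protocols. The submitters' processing notes name Salmon 1.2.0 and the build GRCm38. Salmon's options and its transcript set were not given in the sources used here. The deposited tables hold estimated counts and TPM per transcript, per the file headers. Of 116546 transcripts, 115977 (99.5%) were matched to GENCODE M21, giving 35498 genes, for which the transcripts' estimated counts were added up and rounded. The rest held 0.121 to 0.165% of a library's reads and were left out.

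Levels are CPM on TMM library sizes. Tests across genes used edgeR 4.0.16, quasi-likelihood (R 4.3.3; filter on low counts, 13044 genes kept, 1 fit over all 13 libraries), adjusted by Benjamini-Hochberg over all tested genes and called below 0.05; line numbers were compared with the label group as a block. Differences of the members between labels were given no test. Their ratios carry exact 95% intervals for counting error only, and a group with no reads was set to a floor of 3 reads per library. Promoter windows are from RefSeq (GRCm38.p6, 6 of 10 members matched). The edgeR fit was tested on simulated data. Alternatives were DESeq2 1.42.0, other scalings and filters, the line number as a block, left-out libraries and lines, and other limits for on and off; the on and off counts without a line and the medians by chromosome were added after seeing the data. The members and gene lists were chosen with earlier results of these data known. Genes named besides the members and Adcy10 were taken from the 3 genes with the most similar profile, up to 3 list genes called in each direction by smallest p, and the neighbours called or nearest. Named in addition are cell type markers, genes of the on and off counts, and the chromosome 18 neighbours Lars and Alpk2. No pair of libraries of a group agreed within sampling noise (chi-square per degree of freedom 7.11 to 24.5). Whether same-numbered lines pair the libraries was checked on deviations from group means. In NLS the correlations were 0.025 to 0.282 over 9 same-line pairs, so not all exceeded 0.1. Over 18 different-line pairs they were -0.263 to 0.0524. In LacZ they were -0.0201 for the same line and 0.0201 for different lines, values that mirror each other because each LacZ group has 2 libraries. The labels give the number as that of a cell line, so the line number was taken as pairing the libraries. Printed counts of listed and neighbouring genes are therefore given with the block too where they differ. The SE and adjusted p of these genes are from the fit without it, which leaves the pairing out, unless the block is named.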

Additional observations from a re-analysis of the deposited data

Results flagged for a closer look

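For 3 of the 10 genes every NLS line moved one way from the label t0 to t48 and every LacZ line the other way; the difference was not tested, since the genes were chosen on these labels. On the log2(CPM + 0.5) scale, Spats2l changed by 4.85 on average in the NLS lines and by -0.64 in the LacZ lines, a difference of 5.49; the LacZ libraries of Spats2l were all off, at 0.429 and 0.15 CPM at t0 and without a read at t48, so the LacZ value rests on a few reads and no direction is read from it. Armcx2 changed by 4.43 and -0.25, a difference of 4.68. Setbp1 changed by 1.48 and -5.16, a difference of 6.65.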

How the results depend on the processing

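Of 100 group levels of the members recomputed with other library sizes, 98 stayed within 1 SD, and the 2 others, on total counts, were Armcx2 at 87.7 CPM and Zfp532 at 20.1 CPM in LacZ t48. Of the 50 on or off states, none changed with other library sizes or with limits of 0.5 and 1 CPM. With 0.3 and 3 CPM 6 fell between the limits (Spats2l in NLS t6 and LacZ t0, Igf2bp3 in NLS t0 and t48, Prelid2 in NLS t6, Slc8a1 in LacZ t0), and with limits of 0.5 and 2 on TPM 8 did (Spats2l in NLS t0 and LacZ t0, Setbp1 in NLS t0 and t6, Slc8a1 in NLS t6 and LacZ t0, Igf2bp3 in NLS t48, Zfp532 in NLS t6). Of the 149 calls among listed genes and neighbours, 67 held in every alternative run for them. Between lines, 1 of 369 recomputed tests of the members became a call, Setbp1 in line 7 against 16 without the NLS t6 library of line 7 (log2 fold change 0.32, adjusted p = 0.026 by edgeR). Numbers of called genes moved more. With the line number as a replicate block, the pairing of libraries by line, calls rose from 2716 to 4527 (NLS t6 against t0), from 3402 to 5188 (NLS t48 against t0) and from 2419 to 4308 (LacZ). Without line 6 the NLS counts were 994, 1592 and, for t48 against t6 (3673), 2034, and without line 16 they were 1361 and 2118 for the first 2. Leaving out 1 LacZ library gave 1115 to 1290. Between lines 6 and 16 (295), no block gave 1 and leaving out a library 113 to 583. Between lines 7 and 16 (2950), DESeq2 gave 1532, no block 9 and left-out libraries 1503 to 2474. Between lines 7 and 6 (1446) these were 761, 0 and 596 to 1279. Between lines 12 and 10 (16) they were 43, 0 and 7 to 12, with 83 without the filter. With limits of 0.3 and 3 CPM the on and off counts were 20 (NLS labels, 48), 1 (NLS lines, 2) and 9 (LacZ labels, 22), and with 0.5 and 1 CPM they were 99 (NLS labels), 65 (LacZ labels) and 6 (LacZ lines, 2). TPM limits gave 6 for the LacZ lines. Left-out libraries gave 51 to 58 (NLS labels), 3 to 5 (NLS lines), 33 to 38 (LacZ labels) and 5 to 8 (LacZ lines). The causes were not tested. Depth limits the off states: 3 reads are 0.136 to 0.16 CPM.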
